A study of Homo sapiens with 22 samples.

Results

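MEX3A, VAT1L, CSPG4, DDN, DTX4 and CLU are 6 of the 20411 genes in the deposited RNA-seq tables, and all 6 were present in the tables of both MOLM-13 and NB4 cells. They were chosen by the size of their response in MOLM-13 cells: MEX3A, VAT1L, CSPG4 and DDN were among the largest fitted decreases with FP54, and DTX4 and CLU among the largest increases. Their MOLM-13 values are therefore a description without a test, and the NB4 libraries are the ones that did not enter the choice. FP54 is a degrader that joins a ligand of FTO, the demethylase that removes m6A from RNA, to a ligand of the VHL ubiquitin ligase. MOLM-13 is an acute myeloid leukemia cell line with a KMT2A rearrangement, and NB4 is an acute promyelocytic leukemia cell line. Cells of each line received FP54 at 2 μM or its solvent DMSO for 48 h, with 3 RNA-seq libraries per treatment and line. Of the 22 samples of the series these 12 were used, and the other 10 were not analysed here.

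The 6 genes do not belong to one pathway. MEX3A is an RNA-binding protein of the MEX3 family, whose members pair KH domains with a RING finger of ubiquitin ligases. VAT1L is a relative of the vesicle amine transport protein VAT1 in the family of quinone reductase-like enzymes, and CSPG4, also called NG2, is a transmembrane chondroitin sulfate proteoglycan of pericytes, glial precursors and melanoma cells that is also used as a surface marker of KMT2A-rearranged leukemia blasts. DDN encodes dendrin, a protein of neuronal dendrites and of the slit diaphragm of kidney podocytes. DTX4 is a ubiquitin ligase of the Deltex family, which acts on Notch receptors, and CLU encodes clusterin, a secreted chaperone that binds misfolded proteins and lipids.

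The libraries held between 16299700 and 17346902 reads on genes for MOLM-13 with DMSO and between 5829739 and 19191055 with FP54, where replicate 2 was the lowest. For NB4 the ranges were 20654090 to 22344256 with DMSO and 10595658 to 13071329 with FP54. RPKM, the reads of a gene scaled by its length and by the library's total, was compared on the log2(RPKM + 0.1) scale with limma in each line, over the genes with a mean of at least 1 RPKM in its 6 libraries. Calls followed the cutoff of the study's methods, an unadjusted p below 0.01 together with a difference of 0.5 or more on the log2 scale. The 14 myeloid marker genes were all at 1 RPKM or more in every MOLM-13 library, and 13 of them were so in NB4. Of 5 genes that mark KMT2A-rearranged leukemia, 5 reached that level in MOLM-13 and 2 in NB4. FTO mRNA was 1.01 ± 0.0767 RPKM (SD, n = 3) with DMSO and 1.01 ± 0.118 RPKM with FP54 in MOLM-13, and 2.73 ± 0.180 and 2.03 ± 0.0782 RPKM in NB4 (log2 difference −0.41, limma adjusted p = 0.0119, not called).

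The NB4 libraries differed from each other and from the MOLM-13 libraries in ways that touch these genes. The mean RPKM of 415 olfactory receptor genes, which are used mainly by olfactory neurons, was 0.0017 to 0.0037 in the NB4 DMSO libraries, 0.0497 to 0.0548 in the NB4 FP54 libraries and 0.0039 to 0.0083 in MOLM-13. In NB4 FP54 replicate 1, 16 genes with at least 30 reads were more than 3 times as high as in both other FP54 libraries, and VAT1L, CSPG4 and DTX4 were among them. Against the other libraries of its own group, no gene stood out in this way in any other NB4 library, and 0 to 3 genes did in each MOLM-13 library. NB4 values of these 3 genes are therefore given with and without that library.

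RefSeq promoters, from 250 bases before to 50 bases after the start of transcription, were at hand for MEX3A, VAT1L, CSPG4 and DTX4, and DDN and CLU had no entry. The 3 shown belong to the genes that were low with FP54 in MOLM-13 and not among the called genes of NB4, so that their starts can be compared. They are written 5′ to 3′ on the strand of the gene (GRCh38.p14), with capitals at matches on either strand to GGGCGG (the GC box) or CCAAT. The MEX3A promoter lies at chr1:156082416-156082715 (minus strand), that of VAT1L at chr16:77788314-77788613 (plus strand) and that of CSPG4 at chr15:75712799-75713098 (minus strand).
MEX3A: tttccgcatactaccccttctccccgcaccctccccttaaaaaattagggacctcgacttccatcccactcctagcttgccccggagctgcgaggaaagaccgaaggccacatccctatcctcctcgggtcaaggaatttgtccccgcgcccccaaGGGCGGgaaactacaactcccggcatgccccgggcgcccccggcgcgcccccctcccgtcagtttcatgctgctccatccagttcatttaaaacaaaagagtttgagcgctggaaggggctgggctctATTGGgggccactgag
VAT1L: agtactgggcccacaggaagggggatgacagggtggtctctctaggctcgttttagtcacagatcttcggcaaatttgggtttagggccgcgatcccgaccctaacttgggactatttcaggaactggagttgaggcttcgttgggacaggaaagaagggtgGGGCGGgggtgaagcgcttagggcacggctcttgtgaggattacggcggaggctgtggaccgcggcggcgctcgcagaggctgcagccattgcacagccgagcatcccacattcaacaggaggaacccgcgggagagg
CSPG4: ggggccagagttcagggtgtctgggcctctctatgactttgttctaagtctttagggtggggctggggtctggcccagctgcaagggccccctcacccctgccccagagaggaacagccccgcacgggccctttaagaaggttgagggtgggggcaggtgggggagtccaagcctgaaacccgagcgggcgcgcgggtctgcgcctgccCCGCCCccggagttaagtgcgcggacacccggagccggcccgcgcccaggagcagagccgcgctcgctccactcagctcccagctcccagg
Each of the 3 promoters held 1 GC box, which 45.0% of 35116 RefSeq promoters of this length hold, and MEX3A also held 1 CCAAT box, which 34.6% hold. CACGTG (the E-box), TATAAA (the TATA box) and TGANTCA (a site of AP-1 factors) were not in these windows, where 7.3%, 11.5% and 7.7% of all promoters hold them. The GC content was 60.3% for MEX3A, 60.0% for VAT1L and 69.3% for CSPG4. The 2 starts listed for DTX4 held none of the 5 motifs and had GC contents of 32.7% and 67.7%.

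In MOLM-13 cells MEX3A was at 3.79, 2.66 and 5.20 RPKM in the 3 DMSO libraries and at 0.237, 0.729 and 0.429 RPKM in the 3 FP54 libraries. Every FP54 library lay below every DMSO library, and the mean was 8.36-fold lower. The log2 difference was −2.86 (SE 0.34) and rested on 28 to 34 reads per FP54 library. VAT1L went from 2.12, 1.50 and 2.26 RPKM to 0.152, 0.334 and 0.284 RPKM, a log2 difference of −2.55 (SE 0.29), and only 8 to 14 reads were left in each FP54 library. CSPG4 was at 3.54, 2.65 and 3.05 RPKM with DMSO and at 0.534, 0.559 and 0.331 RPKM with FP54, a log2 difference of −2.48 (SE 0.24).

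DDN was the most variable of the 4 low genes in MOLM-13. Its DMSO libraries held 6.01, 2.22 and 6.35 RPKM, with replicate 2 the lowest, and its FP54 libraries held 0.492, 0.944 and 0.763 RPKM. The groups did not overlap in these libraries, which entered the choice of the gene, and the log2 difference was −2.47 (SE 0.38). MEX3A was also lowest in DMSO replicate 2, the library in which VAT1L and CSPG4 had their lowest DMSO values too. Without that DMSO library the log2 difference of DDN was −2.95, the largest among the fits that left out 1 library.

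The 2 genes that were high with FP54 in MOLM-13 started from low levels. DTX4 was at 0.968, 1.41 and 1.13 RPKM with DMSO and at 7.95, 6.08 and 5.05 RPKM with FP54, 5.44 times the DMSO mean. CLU was at 0.433, 0.342 and 0.495 RPKM with DMSO and at 2.33, 2.95 and 2.08 RPKM with FP54, 5.79 times the DMSO mean. Neither gene overlapped between treatments, and the log2 differences were 2.34 (SE 0.22) and 2.28 (SE 0.23). The DTX4 reads went from 103 to 148 per library up to 228 to 982, and the lowest of these came from the shallow FP54 replicate 2.

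**Figure D1:**
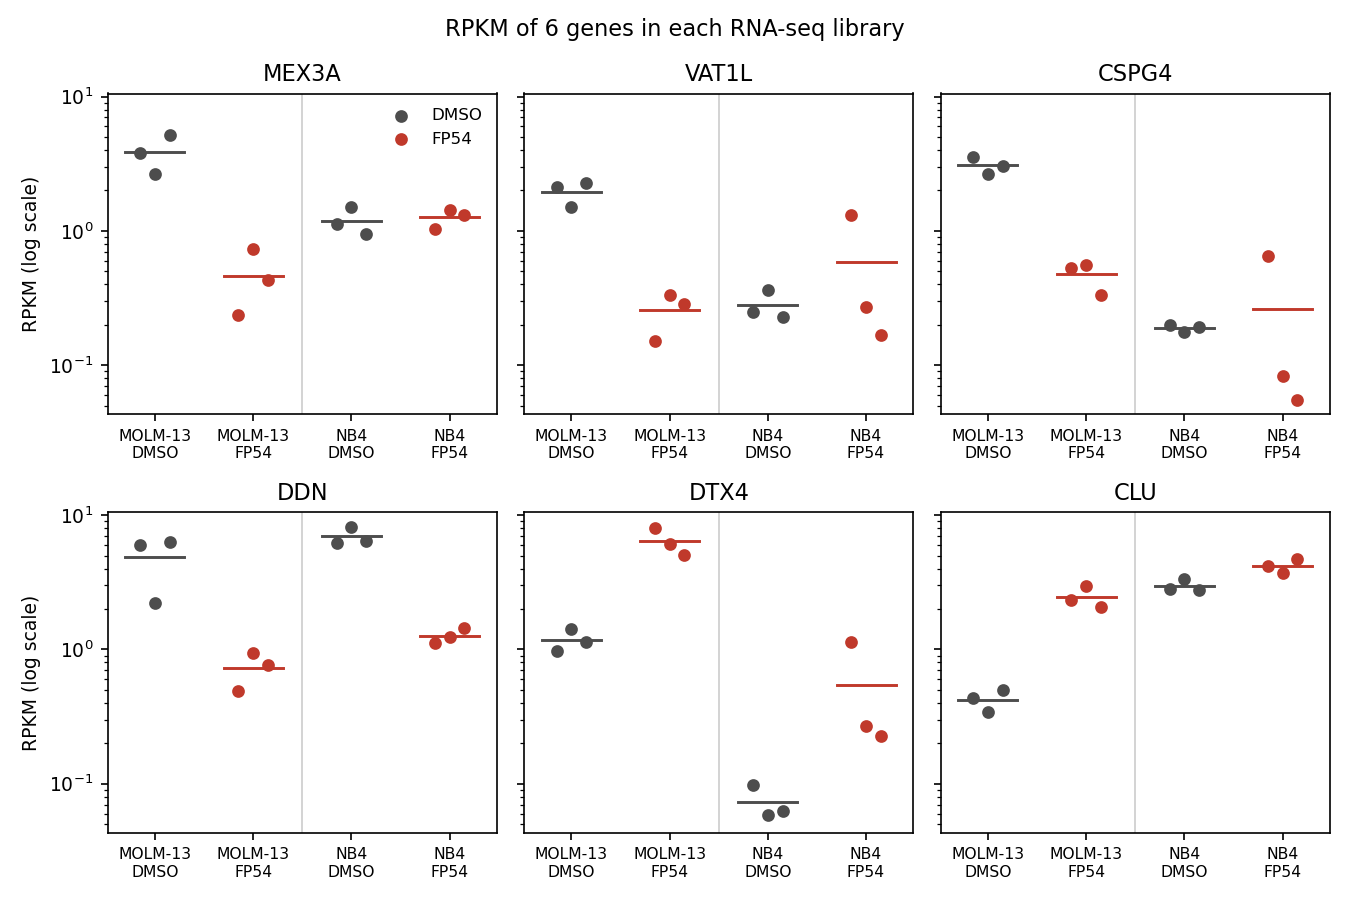
RPKM of MEX3A, VAT1L, CSPG4, DDN, DTX4 and CLU (log axis) in each DMSO (grey) and FP54 (red) library of MOLM-13 and NB4 cells, with replicates 1 to 3 from left to right in each group and lines at the group means. The 2 treatments are apart for all 6 genes in MOLM-13, and in NB4 they are apart for DDN, DTX4 and CLU. The share of all NB4 genes whose treatments are apart is not given here. Without the filter on low values, 27.9% of 17790 NB4 genes were called higher and 6.14% lower.

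Across all genes tested in MOLM-13, 9.04% of 9710 were called lower and 9.3% higher. The 6 genes were picked from the 2 ends of this range, so nothing can be read from their own calls there. Ranked by fitted log2 difference among 1812 genes (limma adjusted p below 0.05, treatments apart), TRAJ23, a T cell receptor joining segment with 0 to 8 reads per library, lay just beyond MEX3A at −4.35. GAL, which encodes the neuropeptide galanin, came directly after DDN at −2.465 against −2.473. On the other side TRGJP1, also a T cell receptor segment and also with 0 to 8 reads, stood above DTX4 at 3.27. SGSH, a lysosomal sulfatase of heparan sulfate breakdown, lay between DTX4 and CLU at 2.29, and ALOX5, the 5-lipoxygenase of leukotriene synthesis, followed CLU at 2.14. GAL and ALOX5 were also called in NB4 in the same directions, with log2 differences of −1.05 (adjusted p = 3.24e-06) and 2.77 (adjusted p = 2.57e-06, limma). TRGJP1 was tested in NB4 without a call, at −0.56 (adjusted p = 0.285), and TRAJ23 and SGSH were below the filter there.

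In NB4 cells 1 of the 6 genes, DDN, was called, and it was lower as in MOLM-13. Of all 9853 genes tested in NB4, 10.7% were called lower and 18.6% higher. MEX3A, DDN and CLU passed the filter on low values there, while VAT1L, CSPG4 and DTX4 had means below 1 RPKM. Among the 9853 genes 63.6% of the calls were higher with FP54, a share that fell to 36.8% with median-ratio scaling and to 48.4% with quantile normalization. The median log2 difference of all genes was 0.07 as deposited, −0.13 with median-ratio scaling and −0.03 with quantile normalization.

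DDN was at 6.23, 8.21 and 6.37 RPKM in the NB4 DMSO libraries and at 1.11, 1.24 and 1.44 RPKM in the FP54 libraries. No FP54 library came near the DMSO range, and the mean was 18.2% of the DMSO mean, or 5.48-fold lower. The log2 difference was −2.36 (SE 0.14, adjusted p = 7.93e-07, limma), the 8th lowest fitted value of the 9853 genes, and it stayed between −2.73 and −1.80 in all alternatives. The exact permutation test of 3 libraries against 3 gave its smallest two-sided p, 0.1. The reads behind it were 491 to 667 per DMSO library and 45 to 72 per FP54 library. The span of DDN (chromosome 12, 48995149 to 48999375, minus strand, hg38) is overlapped by 2 lncRNA genes on the other strand, DDN-AS1 among them, and since the strand setting of the counting is not given in the sources used here, reads of these transcripts cannot be told apart from those of DDN.

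CLU was higher with FP54 in NB4, by a smaller fold than in MOLM-13. Its RPKM was 2.80, 3.35 and 2.77 with DMSO and 4.16, 3.73 and 4.70 with FP54, with no overlap between the treatments. The FP54 mean was 1.41 times the DMSO mean, and the log2 difference of 0.48 (SE 0.13, adjusted p = 0.00846, limma) missed the minimum of 0.5. With median-ratio scaling the difference of CLU in NB4 was 0.29 (adjusted p = 0.0749) and with quantile normalization 0.25 (adjusted p = 0.12). CLU lies on chromosome 8 from 27596917 to 27614700 (minus strand, hg38).

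MEX3A did not pass the test in NB4, and its treatments overlapped. It was at 1.13, 1.50 and 0.951 RPKM with DMSO and at 1.03, 1.43 and 1.32 RPKM with FP54. The log2 difference was 0.08 (SE 0.19, adjusted p = 0.725, limma), and its sign turned to −0.10 with median-ratio scaling and −0.47 with quantile normalization (adjusted p = 0.672 and 0.0572). MEX3A had 72 to 114 reads per NB4 FP54 library. The difference between the lines in the FP54 response was not tested for MEX3A or the other 5 genes, because they were selected on 1 side of it.

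DTX4 was at 0.0978, 0.0584 and 0.0626 RPKM in NB4 with DMSO, on 8 to 13 reads, and at 1.14, 0.267 and 0.226 RPKM with FP54, on 19 to 78 reads. Every FP54 library was above every DMSO library (exact permutation p = 0.1, the smallest that 3 against 3 can give). In a fit without the filter, where 27.9% of 17790 genes were called higher and 6.14% lower, DTX4 was called higher with a log2 difference of 1.62 (adjusted p = 0.0207, limma). Without FP54 replicate 1 the difference was 1.01 (SE 0.16, adjusted p = 0.00454), 338% of the DMSO mean. The DTX4 level in FP54 replicates 2 and 3 compares with a mean of 0.0497 to 0.0548 RPKM for olfactory receptor genes in the NB4 FP54 libraries. Subtracting each library's olfactory receptor mean from every gene left a log2 difference of 1.47 for DTX4, with FP54 replicate 1 still included. The subtraction and leaving out that library were not combined. The part of the higher background in the DTX4 result was not tested further.

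DTX4 shares its last 79 bases with MPEG1, the gene of macrophage perforin-2 on the other strand, whose RPKM was also higher with FP54. DTX4 spans chromosome 11 from 59171430 to 59208588 on the plus strand, and MPEG1 spans 59208510 to 59212927. MPEG1 was at 2.80 ± 0.152 RPKM with DMSO and 8.28 ± 1.89 RPKM with FP54 in MOLM-13 (SD, n = 3), and at 0.233 ± 0.0174 and 1.43 ± 0.724 RPKM in NB4. In NB4 its FP54 values were 2.24, 1.21 and 0.848 RPKM, with replicate 1 the highest as for DTX4. Reads in the shared bases cannot be assigned to either gene without the strand, and their number was not measured.

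VAT1L and CSPG4 were barely present in NB4. VAT1L was at 0.248, 0.366 and 0.229 RPKM with DMSO and at 1.31, 0.272 and 0.168 RPKM with FP54, on 57, 13 and 9 reads (exact permutation p = 0.8). FP54 replicate 1 was the highest NB4 library and the other 2 lay within or below the DMSO range. Without that library the log2 difference of VAT1L turned from 0.47 to −0.25 (adjusted p = 0.414, limma without the filter).

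CSPG4 was at 0.199, 0.176 and 0.194 RPKM in NB4 with DMSO and at 0.649, 0.0829 and 0.0554 RPKM with FP54 (exact permutation p = 1). FP54 replicate 1 was above all DMSO libraries, and replicates 2 and 3 were below all of them. With all 6 libraries the log2 difference was −0.06. Without FP54 replicate 1, CSPG4 was at 36.5% of the DMSO mean, a log2 difference of −0.78 (SE 0.15, adjusted p = 0.00765, limma without the filter), on 8 and 6 reads in the FP54 libraries against 31 to 36 with DMSO. At this depth the direction of CSPG4 in NB4 rests on 1 library.

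**Figure D2:**
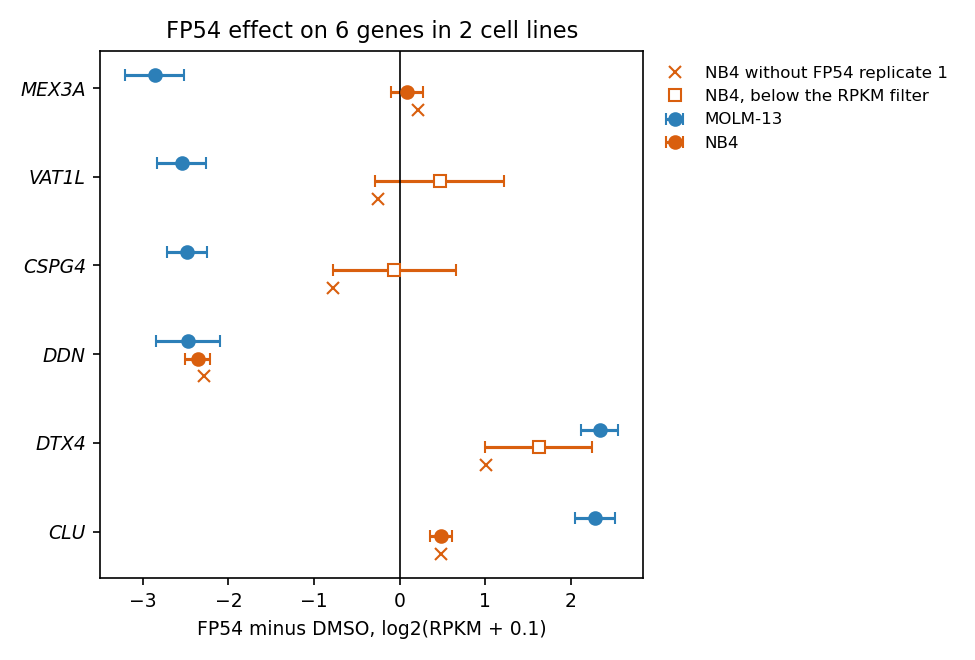
Difference between FP54 and DMSO on the log2(RPKM + 0.1) scale for the 6 genes in MOLM-13 (blue) and NB4 (orange), with bars for the standard error, from limma for filled circles and from the pooled SD of the log2 values for open squares (genes below the filter), and crosses for NB4 without FP54 replicate 1. DDN lies at −2.47 and −2.36 in the 2 lines, while MEX3A lies at −2.86 in MOLM-13 and 0.08 in NB4.

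The genes that shared the high value in NB4 FP54 replicate 1 were named after their values were seen. S100A9, a calcium-binding protein of neutrophils and monocytes, was at 26.5 RPKM there and at 4.35 and 2.80 RPKM in the other FP54 libraries. TGFBI, a secreted matrix protein, had the highest ratio, at 0.587 RPKM against 0.0223 and 0.0297 RPKM. VAT1L, CSPG4 and DTX4 in replicate 1 were 5.96, 9.38 and 4.64 times the mean of the other 2 FP54 libraries. All 16 genes were above every DMSO library in replicate 1, and 13 of them had a higher DMSO mean in MOLM-13 than in NB4. The share of all genes with a higher DMSO mean in MOLM-13 is not given here. PRAME and TGFBI were listed at 0 in the MOLM-13 DMSO libraries. S100A9, S100A8 and BEND4 were at 26.5, 3.92 and 0.331 RPKM in replicate 1, above their MOLM-13 DMSO means of 3.68, 1.08 and 0.00231 RPKM. PRAME at 0.818 RPKM and TGFBI at 0.587 RPKM in replicate 1 were also above theirs, and the rest of the 16 genes were below. The source of the high values in this library was not tested.

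**Figure D3:**
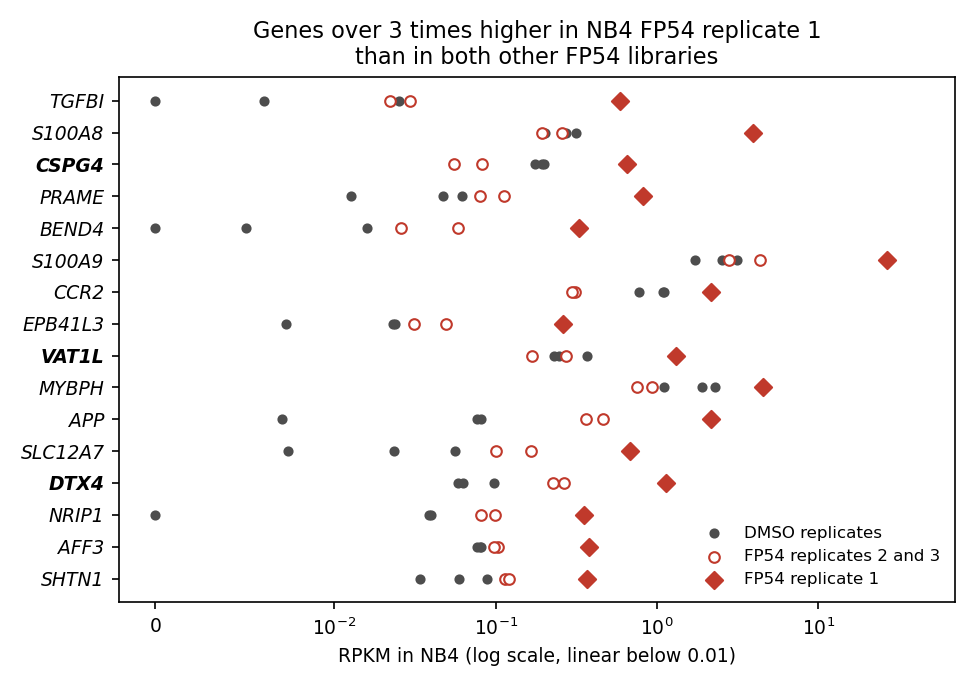
RPKM in NB4 cells (log axis, linear below 0.01) of the 16 genes that were more than 3 times as high in FP54 replicate 1 (diamonds) as in both other FP54 libraries (open circles), with DMSO libraries as grey points and VAT1L, CSPG4 and DTX4 in bold. The diamonds lie to the right of every other library in all 16 rows.

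The starting levels of the 6 genes differed between the lines, in tables that were scaled separately. CSPG4 was 16.2 times as high in MOLM-13 as in NB4 with DMSO, DTX4 16.0 times, VAT1L 6.98 times and MEX3A 3.25 times. CLU was 7.02 times as high in NB4. DDN was 1.43 times as high in NB4, with overlapping values. By mean DMSO level in MOLM-13 the order was DDN (4.86 RPKM), MEX3A (3.88), CSPG4 (3.08), VAT1L (1.96), DTX4 (1.17) and CLU (0.423), in which DDN, MEX3A and CSPG4 overlapped each other and the highest VAT1L library (2.26 RPKM) lay above the lowest DDN library (2.22 RPKM). In NB4 the order was DDN (6.94 RPKM), CLU (2.97), MEX3A (1.20), VAT1L (0.281), CSPG4 (0.189) and DTX4 (0.0729), and the libraries of neighbouring genes did not overlap. With FP54, the MOLM-13 mean of CLU (2.45 RPKM) came below its NB4 DMSO mean, and that of MEX3A (0.465 RPKM) below its NB4 level in either treatment.

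Among markers of other cell types, the neuron and melanocyte genes were low. Some pericyte and stromal, T cell and epithelial genes reached 1 RPKM in both lines. Of 7 pericyte and stromal genes, ACTA2 reached 1 RPKM in every MOLM-13 library, MCAM and ACTA2 did in NB4, and the summed level went from 5.89 to 7.01 with DMSO to 8.70 to 10.6 with FP54 in MOLM-13 and from 9.30 to 10.7 to 14.7 to 15.3 in NB4. DCN, the matrix proteoglycan decorin, was below 0.1 RPKM everywhere. The 5 neuron genes summed to 0.325 to 0.651 RPKM in MOLM-13 and to 0.0384 to 0.628 RPKM in NB4, and the 4 melanocyte genes to at most 0.261 and 0.711 RPKM. B cell genes stayed below 1.22 RPKM in sum in MOLM-13 and between 4.26 and 7.46 in NB4, with MS4A1 below 0.1 in both. T cell genes were at 28.1 to 32.4 with DMSO and 14.1 to 15.7 with FP54 in MOLM-13, and at 20.7 to 30.1 and 33.9 to 38.7 in NB4. TRAC reached 1 RPKM in both lines and CD3D in NB4, and CD2, CD5 and TRBC1 were below 0.1 RPKM in both lines. Erythroid genes summed to at most 0.411 RPKM. Megakaryocyte genes went from 1.62 to 2.49 up to 13.9 to 15.3 RPKM in NB4, where ITGA2B alone reached 1 RPKM and PF4, PPBP, GP9 and GP1BA were below 0.1. Epithelial genes summed to 5.02 to 8.98 RPKM in MOLM-13 and 20.1 to 24.3 in NB4, where EPCAM, KRT8 and KRT18 reached 1 RPKM. The part of other cell types in the results for the 6 genes was not tested.

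Families and pathways of the 6 genes were followed through 130 related genes that were listed by role. In MOLM-13, 76 of them were tested, of which 3 were lower (3.95%, against 9.04% of all genes) and 9 higher (11.8%, against 9.3%), with a median log2 difference of 0.03. In NB4, 78 were tested, of which 5 were lower (6.41%, against 10.7%) and 25 higher (32.1%, against 18.6%), with a median of 0.25 beside 0.07 for all genes. With median-ratio scaling the NB4 counts were 11 lower and 16 higher, beside 2011 lower and 1169 higher of all 9842 genes tested. With quantile normalization they were 8 lower and 19 higher, beside 1363 lower and 1280 higher of 9853. ADAM17, RFNG, NUMBL and APOE were the 4 related genes called in both lines.

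The other MEX3 genes, MEX3B, MEX3C and MEX3D, were tested in both lines. None was called in MOLM-13 by limma or limma-voom, and 1 of the 3, MEX3D, had an unadjusted p below 0.05 there. MEX3C rose in NB4 from 7.79 ± 1.12 to 11.2 ± 0.659 RPKM (log2 difference 0.53, adjusted p = 0.00289), a call that was lost with median-ratio scaling (0.33), with quantile normalization (0.47) and without DMSO replicate 2 (0.45) or FP54 replicate 2 (0.49). Among 6 tested relatives of VAT1L, NQO2, a quinone reductase, rose in MOLM-13 (1.07, adjusted p = 0.00424). In NB4 VAT1 and NQO1 rose, VAT1 from 26.7 ± 1.83 to 40.4 ± 1.50 RPKM (0.60, adjusted p = 0.000224) and NQO1, an NRF2 target and quinone reductase, from 23.0 ± 1.69 to 82.4 ± 1.63 RPKM (1.84, adjusted p = 1.27e-07). The VAT1 call was lost with median-ratio scaling (0.40).

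CSPG4 carries chondroitin sulfate, and other core proteins and the enzymes of this and related sulfated chains were listed beside it. None of 4 tested core proteins was called in MOLM-13 by limma or limma-voom, and 1, CD74, had an unadjusted p below 0.05. In NB4, 1 of 5 fell and 2 rose: SRGN, the serglycin of myeloid granules, fell from 605 ± 92.3 to 336 ± 30.8 RPKM (log2 difference −0.84, adjusted p = 0.000211), and CD74 (1.95, adjusted p = 9.36e-05) and SDC4 (0.63, adjusted p = 0.00147) rose, the latter not called with median-ratio scaling (0.44). Of the genes for synthesis and breakdown of sulfated glycosaminoglycans, 16 were tested in MOLM-13, with 1 lower and 3 higher, and 18 in NB4, with 1 lower and 4 higher. SGSH rose in MOLM-13 from 0.643 ± 0.150 to 3.61 ± 1.22 RPKM (2.29, adjusted p = 0.00156). In NB4 IDUA, the lysosomal iduronidase, rose by 1.80 (adjusted p = 8.61e-06) and CHPF, a chondroitin polymerizing factor, by 1.23 (adjusted p = 4.29e-05).

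DDN had few partners to follow. Of 10 genes for dendrin partners and the slit diaphragm, 2 were tested in MOLM-13 and 3 in NB4, and 0 were called in either line by limma or limma-voom, with 0 at an unadjusted p below 0.05. Nephrin (NPHS1), a core protein of the podocyte slit diaphragm, was below the filter in both lines, at means of 0.024 RPKM in MOLM-13 and 0.016 RPKM in NB4 with DMSO, and at 0.495 RPKM with FP54 in NB4. CD2AP, an adaptor that binds nephrin, was at 3.93 ± 1.13 RPKM in MOLM-13 and 7.73 ± 2.07 RPKM in NB4 with DMSO, with log2 differences of −0.25 (adjusted p = 0.427) and 0.31 (adjusted p = 0.182).

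The Deltex relatives of DTX4 stayed mostly below the cutoff. DTX2 and DTX3L were tested in both lines without a call, and DTX1 and DTX3 were below 0.16 RPKM in mean in every group. DTX3L in NB4 missed only the fold minimum, with a log2 difference of 0.45 (adjusted p = 0.0098, limma). PARP9, the partner of DTX3L, rose in NB4 (log2 difference 0.96, adjusted p = 0.000524). No Notch ligand or receptor was called in MOLM-13, where NOTCH1 was at 0.58 and NOTCH2 at 0.55 on the log2 scale, each with an unadjusted p between 0.01 and 0.05. Limma-voom called both receptors in MOLM-13, as did the fits without DMSO replicate 2 (0.71 and 0.68) or FP54 replicate 2 (0.76 and 0.74). In NB4 both receptors rose, NOTCH1 from 4.54 ± 0.687 to 11.7 ± 0.630 RPKM (1.35, adjusted p = 9.21e-06) and NOTCH2 from 4.42 ± 1.17 to 6.96 ± 0.362 RPKM (0.68, adjusted p = 0.00674, not called with median-ratio scaling at 0.48 or without DMSO replicate 2 at 0.47 or FP54 replicate 1 at 0.64). The ligand DLL1 rose (1.34, adjusted p = 3.75e-06) and DLL4 fell (−0.76, adjusted p = 0.000516).

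Of the genes for Notch processing, glycosylation and transcription, 21 were tested in MOLM-13, with 2 lower and 2 higher, and 20 in NB4, with 1 lower and 8 higher, of which 4 were called higher with median-ratio scaling. ADAM17, a protease that can shed the Notch ectodomain, fell in MOLM-13 from 4.14 ± 0.109 to 2.57 ± 0.178 RPKM (log2 difference −0.67, adjusted p = 0.0177). In NB4 ADAM17 rose from 4.91 ± 0.634 to 8.18 ± 0.554 RPKM (0.73, adjusted p = 0.00047). ADAM10, also listed for Notch processing, was called in neither line, at 0.30 in MOLM-13 and 0.36 in NB4 (limma adjusted p = 0.188 and 0.0495). LFNG, a fringe glycosyltransferase that tunes ligand choice, rose in NB4 (1.80, adjusted p = 6.46e-06), as did APH1B, a gamma-secretase subunit (0.81, adjusted p = 0.000883). RFNG, also a fringe, and NUMBL, a relative of the Notch inhibitor NUMB, rose in both lines, by 0.63 and 0.65 in MOLM-13 (adjusted p = 0.0481 and 0.0485) and by 0.59 and 0.82 in NB4 (adjusted p = 0.00604 and 0.000664), where RFNG was not called with either scaling and NUMBL not with quantile normalization (0.26). In MOLM-13 these 2 calls were lost without any 1 of 5 libraries for RFNG (0.43 to 0.66) and of 4 for NUMBL (0.44 to 0.68), both lowest without FP54 replicate 1. Of 11 Notch target genes, 1 was tested in MOLM-13 and 3 in NB4, and 0 were called in either line by limma or limma-voom, with 1 of them, HES6 in NB4, at an unadjusted p below 0.05. HES1, the usual readout of Notch signalling, was at 15.8 ± 3.19 RPKM in NB4 with DMSO, with a log2 difference of 0.20 (adjusted p = 0.213). In MOLM-13 HES1 was below the filter and not tested, at 1.30 ± 0.293 RPKM with DMSO and 0.618 ± 0.479 RPKM with FP54.

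CLU was followed with clusterin receptors and other extracellular chaperones. Of these, 7 were tested in MOLM-13, with 3 higher, and 4 in NB4, with 3 higher. APOE, an apolipoprotein secreted like clusterin, rose in both lines, from 4.20 ± 1.17 to 8.23 ± 2.54 RPKM in MOLM-13 (log2 difference 0.95, adjusted p = 0.0377, not called with median-ratio scaling, or at 0.70, 0.84 and 0.77 without DMSO replicate 1, FP54 replicate 1 and FP54 replicate 2) and from 0.800 ± 0.271 to 2.99 ± 0.369 RPKM in NB4 (1.82, adjusted p = 6.91e-05). VLDLR, a receptor of apolipoproteins, rose in NB4 from 1.07 ± 0.175 to 12.1 ± 0.770 RPKM (3.39, adjusted p = 5.03e-08), where SERPINA1, a secreted protease inhibitor, also rose (1.53, adjusted p = 4.41e-05). Among 8 tested clusterin partners and genes of proteotoxic stress, none was called in MOLM-13 by limma or limma-voom, and 2, DNAJB1 and BCL2L1, had an unadjusted p below 0.05. In NB4 DDIT3, which encodes the stress transcription factor CHOP, rose (1.90, adjusted p = 4.82e-05) and XRCC6, which encodes the clusterin partner Ku70, fell (−0.57, adjusted p = 0.000181, not called with quantile normalization at −0.43).

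**Figure D4:**
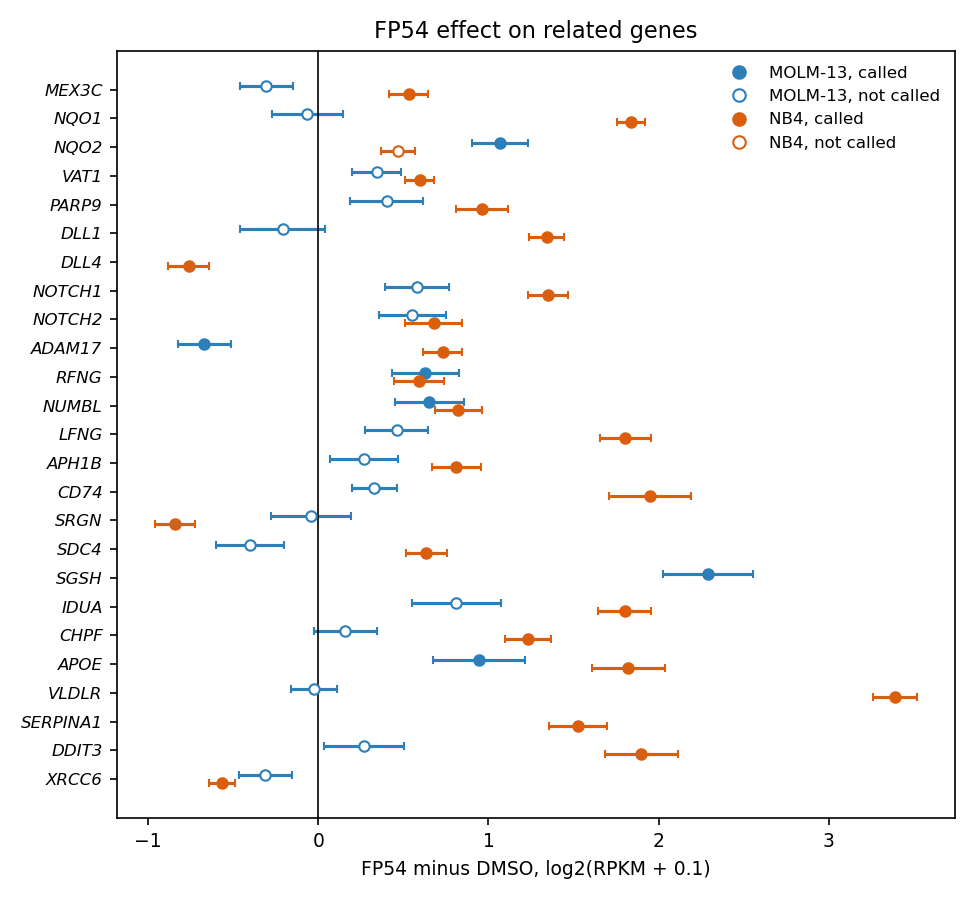
Log2 difference between FP54 and DMSO, with its standard error from limma, for 25 related genes in MOLM-13 (blue) and NB4 (orange), filled where called. DLL4 and SERPINA1 in MOLM-13 and SGSH in NB4 were below the filter, and ADAM17 is called in opposite directions at −0.67 and 0.73.

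The genes with the most similar pattern over the 12 libraries were found by Pearson correlation of log2(RPKM + 0.1) among 10713 genes. The 12 libraries share 2 lines, 2 treatments and their depth, so each r is a description. DDN was most like ISOC2 (r = 0.977), BOP1 and POP1 (r = 0.971 for both), where BOP1 is a ribosome biogenesis factor and POP1 a subunit of RNase P and RNase MRP. DDN was at 4.86 and 0.733 RPKM (DMSO and FP54) in MOLM-13 and at 6.94 and 1.26 RPKM in NB4, and BOP1 was at 20.7 and 6.54 RPKM and at 21.5 and 9.04 RPKM. MEX3A was nearest to GMDS and POLR3D (r = 0.963 for both) and SLTM (r = 0.949).

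VAT1L was nearest to CSPG4 (r = 0.879), PTPN7 (r = 0.878) and CGREF1 (r = 0.874), and the first of these pairs shares the high value of NB4 FP54 replicate 1. CSPG4 was nearest to XBP1 (r = 0.935), STK17A (r = 0.910) and RRAD (r = 0.903). DTX4 was nearest to RGS2 (r = 0.980), HTR2B (r = 0.979) and CLEC7A (r = 0.978), the last a surface receptor of myeloid cells for fungal glucans that was at 0.760 and 2.30 RPKM in MOLM-13 and at 0.0593 and 0.344 RPKM in NB4. CLU was nearest to TCN2 (r = 0.970), FAM120AOS (r = 0.969) and CEP68 (r = 0.964), all of them higher with FP54 in mean in both lines.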

How the data were processed

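The RNA-seq libraries of both cell lines were used, 3 per treatment and line. The authors selected poly(A) RNA, made stranded libraries, trimmed reads with Cutadapt 4.8, removed duplicates, aligned to hg38 with STAR 2.7.11b, counted on GENCODE genes with featureCounts 2.0.3, and deposited the values as RPKM. The gene length, the library total and the strand setting of the counting are not given in the sources used here, and only its name ties the NB4 table to that line. Read numbers were recovered as RPKM times the exon length of a later GENCODE release and the library's step, and 98.3 to 98.9% of values below 30 reads came out whole within 0.02.

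Fits of log2(RPKM + 0.1) were made line by line with limma 3.58.1 in R 4.3.3, where eBayes used an intensity trend, and genes averaging under 1 RPKM were left out, without a block for the replicate number, with Benjamini-Hochberg adjustment over all genes tested. A fold change on this scale understates the change of low genes. DESeq2, which the authors used, was not run because RPKM are not counts. Genes below the filter were given an exact two-sided permutation test of 3 libraries against 3, which cannot go below 0.1. The labels do not say whether libraries came from separate cultures, so p-values measure the spread between these libraries only. Tables were read with Python 3.11.15, pandas 2.3.3 and numpy 2.4.6 and drawn with matplotlib 3.10.9.

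The 6 genes and the lists were chosen with earlier results of these data known. Named besides the 6 were related genes called in both lines and up to 3 per list with the largest change, the genes beside the 6 in the MOLM-13 ranking (GAL was added after its value was seen), the 3 most correlated genes of each, FTO and cell type markers. MEX3B, MEX3D, DTX1, DTX2, DTX3, DTX3L, ADAM10, HES1, CD2AP, NPHS1, HES6, DNAJB1, BCL2L1, MPEG1 and the genes of NB4 FP54 replicate 1 lie outside this rule. The alternatives comprised pseudocounts of 1 and 0.01, no filter on low values, filters of 0.5 and 5 RPKM, 2 other scalings, the replicate block, eBayes settings, an adjusted p cutoff, limma-voom on recovered reads and leaving out each library. Subtracting the olfactory receptor mean, and leaving out NB4 FP54 replicate 1 together with the filter, were added after seeing the data.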

Additional observations from a re-analysis of the deposited data

Results flagged for a closer look

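ADAM17, which encodes a protease that can shed the Notch ectodomain, was called in opposite directions in the 2 lines. Its log2 difference between FP54 and DMSO was −0.67 in MOLM-13 and 0.73 in NB4. All 3 FP54 libraries of MOLM-13 lay below the DMSO libraries and all 3 of NB4 lay above them. The difference between the lines itself was not tested. Both directions and calls were kept under every alternative scaling and with each library left out in turn. The calls rest on the unadjusted p, which in MOLM-13 was 0.0099 (limma) without DMSO replicate 1. The limma adjusted p in MOLM-13 was 0.0778, 0.0821 and 0.0765 without DMSO replicate 1, DMSO replicate 3 and FP54 replicate 1.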

How the results depend on the processing

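DDN kept its call in NB4 under each alternative that tested it, from −2.73 to −1.80 (log2), and the filter at 5 RPKM, under which its 4.1 RPKM mean was not tested, left 0 of the 6 genes called lower. A pseudocount of 1 brought the MOLM-13 differences to −1.72 (MEX3A), −1.23 (VAT1L), −1.47 (CSPG4), −1.67 (DDN), 1.75 (DTX4) and 1.27 (CLU), and that of DTX4 in NB4 to 0.48. VAT1L in MOLM-13 was −2.93 with a pseudocount of 0.01 and −3.03 with limma-voom, and CLU was 2.67 with quantile normalization. The sign of MEX3A in NB4 reversed with median-ratio scaling (−0.10) and quantile normalization (−0.47), and it was between −0.06 and 0.25 with 1 library left out (−0.056 without DMSO replicate 3 and −0.0072 without FP54 replicate 2). CLU in NB4 passed the fold minimum with limma-voom (0.51) and was between 0.40 and 0.57 with 1 library left out.

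The count of the 6 genes called lower in NB4 was 2 without the filter and FP54 replicate 1, and the count called higher was 1 without the filter, with limma-voom, and without both the filter and FP54 replicate 1 (0 to 1 with 1 library left out). Of all 17579 genes tested without the filter and FP54 replicate 1, 989 were called lower and 4684 higher. Without the filter alone 27.9% of 17790 were called higher, and with limma-voom 1924 of 9818. Related genes called lower in MOLM-13 were 6 without the filter (1 to 7 with 1 library left out), and those called higher were 4 with a filter of 5 RPKM (3 to 11). In NB4, related genes called lower were 2 with a pseudocount of 1, 2 with a filter of 5 RPKM, 11 with median-ratio scaling and 8 with quantile normalization (4 to 6 with 1 library left out). Those called higher were 45 without the filter, 15 with a filter of 5 RPKM, 16 with median-ratio scaling, and 38 without the filter and FP54 replicate 1 (21 to 27). Without 1 library each, NQO1 in MOLM-13 ranged from −0.21 to 0.05 (0.052 without FP54 replicate 2) and SRGN in MOLM-13 from −0.29 to 0.14 (0.11 without DMSO replicate 1, 0.02 without FP54 replicate 2). RFNG in NB4 lost its call without DMSO replicate 3 (0.50), FP54 replicate 1 (0.52) or FP54 replicate 2 (0.55), and NQO2 in NB4 gained one without DMSO replicate 2 (0.55). The causes were not tested. The replicate block gave DDN −2.36 and CLU 0.48 in NB4 and changed no call of the 6 genes. Same-numbered libraries deviated with r of −0.26 to −0.06 in MOLM-13 and −0.14 to 0.12 in NB4, so the numbers were not used to pair them. VAT1L, CSPG4 and DTX4 in NB4 are limited by depth, with 6 to 36 reads in most libraries.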
